A study of Mus musculus with 39 samples.

Results

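The response of mouse spleen to 2 hours of reduced oxygen was measured on 16 arrays whose titles carry replicate numbers 1 to 8 in each of 2 groups, and it is compared here between replicates 1 to 4 and replicates 5 to 8. Members were chosen by replicate number alone. They are all the spleen arrays of the series, 16 of 39 arrays, with 4 arrays in each of the 4 cells (control 1 to 4, reduced oxygen 1 to 4, control 5 to 8 and reduced oxygen 5 to 8). The labels name no batch, day or litter, so a set is only a range of replicate numbers.

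The mice were of the B6C3F1 strain, a hybrid laboratory strain. Titles call the control arm vehicle and the other arm hypoxia, but the sources used here name no substance, oxygen level or age, and whether the mice under reduced oxygen also received a vehicle is not said. All groups share the ketamine and acepromazine anaesthesia under which the animals were killed, and RNA came from part of a cross-section of the spleen. The labels do not say that samples of a group came from separate animals, so the p-values measure only the spread between these samples, which may be technical.

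The mouse spleen filters blood and also makes blood cells. Its red pulp holds erythroblasts, which divide and synthesise haem as they mature, together with megakaryocytes, a reserve of neutrophils and monocytes, and macrophages that clear old red cells and recycle their iron. Low oxygen acts on gene expression directly through the HIF transcription factors, and it also raises stress hormones such as glucocorticoids, which act through their own receptor and move leukocytes between blood and tissues.

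The values are log2 intensity, on which a difference of 1 is a 2-fold difference. A response is reduced oxygen minus control within a set, and the interaction is the response in replicates 5 to 8 minus the response in replicates 1 to 4. A positive interaction therefore means a more positive response in replicates 5 to 8. One limma fit of the 4 cells gave every contrast, for 12735 genes. A gene was called when its Benjamini-Hochberg adjusted p was under 0.05, every ± beside a log2 difference is its standard error, and 4 arrays stand behind each cell. The level of a gene list in an array is the median log2 intensity of its tested members.

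Several arrays stood apart from the rest of their group. Pancreatic acinar genes had a list level of 13.04 in control 5 and 10.35 in reduced oxygen 2, against 5.64 to 6.59 in the other 14 arrays. Adipocyte genes had a level of 10.50 in control 4, against 6.23 to 8.57 elsewhere. Reduced oxygen 4 had the lowest levels of B cell genes, at 10.07, and of T and NK cell genes, at 7.87, and the highest median level of proliferation genes. Markers of the red pulp and white pulp were present in every array, with Cd79a at 10.88 or higher, Csf1r at 12.53 or higher and Pf4 at 11.13 or higher. The liver markers Alb, Apoa1 and Ttr did not exceed 7.19. Of the erythroid markers, Hbb-b1 was not analysed here, and Hba-a1 lay at 3.74 to 4.63 in all arrays, below the filter on dim genes, while Alas2 lay at 12.40 or higher.

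Over all genes, 25 of 12735 passed the test of the interaction (0.196%). All 25 had a more negative response in replicates 5 to 8, and 0 had a more positive one. At an unadjusted p under 0.05, limma gave 434 genes with a positive interaction (3.41%) and 1325 with a negative one (10.4%). Within replicates 1 to 4, 765 genes were higher under reduced oxygen (6.01%) and 730 lower (5.73%). Within replicates 5 to 8, 620 were higher (4.87%) and 1515 lower (11.9%). Single arrays bore on these counts. The response in replicates 1 to 4 gave 899 calls without control 3 and 924 without reduced oxygen 3, against 1495 with all arrays. The response in replicates 5 to 8 gave 2135 calls with all arrays, 1194 without control 7, 1206 without reduced oxygen 7, 1302 without reduced oxygen 8 and 3287 without reduced oxygen 4.

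None of the 25 called genes is a member of the erythroid, proliferation, myeloid or endothelial and stromal lists. They include Shroom2, an actin-binding junction protein, Ednrb, the endothelin receptor type B of vascular cells, and Timp3, a matrix-bound inhibitor of metalloproteinases. Among them, 18 rose under reduced oxygen in replicates 1 to 4 and 14 fell in replicates 5 to 8, and 7 did both. Their interactions ran from -0.52 to -1.34 with standard errors of 0.08 to 0.24, and each had an adjusted p of 0.0479 in limma.

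Timp3 rose in replicates 1 to 4 and did not pass in replicates 5 to 8. In controls 1 to 4 it lay at 9.21, 8.90, 9.28 and 9.40, and under reduced oxygen 1 to 4 at 10.19, 9.86, 10.15 and 10.50. In controls 5 to 8 it lay at 9.60, 9.39, 9.38 and 9.32, and under reduced oxygen 5 to 8 at 9.16, 9.26, 9.26 and 9.29. The reduced-oxygen arrays were thus all above their controls in the first set and all just below them in the second. The response was 0.98 ± 0.12 in replicates 1 to 4 (adjusted p = 0.000211) and -0.19 ± 0.12 in replicates 5 to 8 (adjusted p = 0.319), and the interaction was -1.16 ± 0.18. The other 3 probe sets of Timp3 gave interactions of -0.85, -1.01 and -1.05.

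The promoter of Timp3 is shown because its other probe sets gave interactions of like size. It is the stretch of 250 bases before the RefSeq start (GRCm38.p6, chr10:86300162-86300411, plus strand), read along the gene, with matches to CACCC, the core motif of KLF factors, and to GCGTG, a core motif of HIF, on either strand in capitals.
Timp3: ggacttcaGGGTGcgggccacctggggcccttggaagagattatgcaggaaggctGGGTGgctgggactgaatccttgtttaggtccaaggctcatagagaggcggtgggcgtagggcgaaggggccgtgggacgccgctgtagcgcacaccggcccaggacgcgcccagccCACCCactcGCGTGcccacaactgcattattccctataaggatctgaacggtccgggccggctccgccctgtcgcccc
CACCC or its complement stands in it 3 times and GCGTG 1 time. Among the 20 called genes with a promoter entry, 80% held CACCC and 75% held GCGTG, against 62.2% and 48.3% of the 10259 tested genes with an entry, while ACGTG, the other HIF core motif, stood in 5%, against 24.3%, CCAAT in 40%, against 39.9%, and AGATAA in 0 of 20, against 7.59%. A match is a string of letters in this window and not a binding site. A gene with several listed starts counted as holding a motif when any of them did.

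Shroom2 had the largest interaction, -1.34 ± 0.24. It lay at 5.40, 5.15, 5.58 and 5.53 in controls 1 to 4 and at 7.08, 6.66, 7.12 and 7.38 under reduced oxygen 1 to 4. In replicates 5 to 8 the controls lay at 5.96, 5.91, 5.82 and 5.58 and the reduced-oxygen arrays at 5.66, 6.06, 6.28 and 6.48. The first set separated by more than 1 log2 unit between the nearest arrays and the second set overlapped, with responses of 1.64 ± 0.17 (adjusted p = 4.03e-05) and 0.30 ± 0.17 (adjusted p = 0.24). The other Shroom2 probe set, with a mean of 5.72 against 6.10, gave an interaction of -0.25.

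Ednrb rose in replicates 1 to 4 and fell in replicates 5 to 8. It lay at 7.25, 6.63, 7.52 and 7.35 in controls 1 to 4 and at 7.87, 8.04, 7.76 and 7.73 under reduced oxygen 1 to 4. In replicates 5 to 8 it lay at 7.35, 7.25, 7.31 and 7.16 in controls and at 6.79, 6.65, 6.89 and 6.71 under reduced oxygen. The groups did not overlap in either set, and the responses were 0.66 ± 0.14 (adjusted p = 0.00794) and -0.51 ± 0.14 (adjusted p = 0.0258). Its 2 dimmer probe sets gave interactions of -0.47 and -0.45, against -1.17 here.

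Dcbld2, a membrane protein known from vascular smooth muscle, had its response in the later set. Its level was 7.91, 7.63, 7.85 and 7.91 in controls 1 to 4 and 7.87, 7.79, 7.65 and 8.07 under reduced oxygen, and these arrays overlapped. In replicates 5 to 8 the controls lay at 8.25, 8.00, 8.18 and 7.91 and the reduced-oxygen arrays, all lower, at 7.34, 7.37, 7.12 and 7.32. The responses were 0.02 ± 0.10 and -0.80 ± 0.10, the latter with an adjusted p of 0.000214. A second probe set of Dcbld2, dimmer at a mean of 6.18, gave an interaction of -0.11.

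The other called genes are grouped here by which responses passed, so different groups can hold genes of like values. Pmp22, for example, had responses of 0.38 ± 0.12 (adjusted p = 0.0554 in limma) and -0.55 ± 0.12, close to those of Parva below. Genes that rose in replicates 1 to 4 with a response near 0 in replicates 5 to 8 included Niban2 (0.83 ± 0.10 and 0.04 ± 0.10), the Wnt and norrin receptor Fzd4 (0.68 ± 0.09 and -0.01 ± 0.09) and the activin receptor Acvr2a (0.70 ± 0.10 and -0.10 ± 0.10). Kcnk6, Pkp4, Apbb2, Arhgap31, Bcr and Fgd5, a regulator of Cdc42 known from endothelium, also rose in the first set without passing in the second. Genes that rose in the first set and fell in the second included the engulfment adaptor Gulp1 (0.47 ± 0.14 and -0.57 ± 0.14), the focal adhesion protein Parva (0.42 ± 0.12 and -0.60 ± 0.12), Fmnl2, Dsel, P3h3 and Antxr1. Genes that fell in the second set without passing in the first included the adhesion protein Nectin3 (0.23 ± 0.12 and -0.70 ± 0.12), Pmp22, Crim1, the creatine transporter Slc6a8, Tmbim1 and Abcc9, a subunit of potassium channels known from smooth muscle and pericytes. A dimmer probe set of Parva, with a mean of 5.64, gave an interaction of -0.27. For Nectin3, probe sets with means of 5.70 and 5.28 gave -0.69 and 0.11, and still dimmer ones -0.06 to 0.11. The Gulp1 probe set with a mean of 7.63 gave -0.88. In replicates 1 to 4 the arrays of 16 of the 25 did not overlap, with reduced oxygen higher. Of all genes, 6.48% were so, and 7.29% were so with reduced oxygen lower. In replicates 5 to 8 those of 16 did not overlap, with reduced oxygen lower, as for 17.5% of all genes. The 25 were picked by the interaction in these same arrays, so these counts follow largely from the choice.

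**Figure D1:**
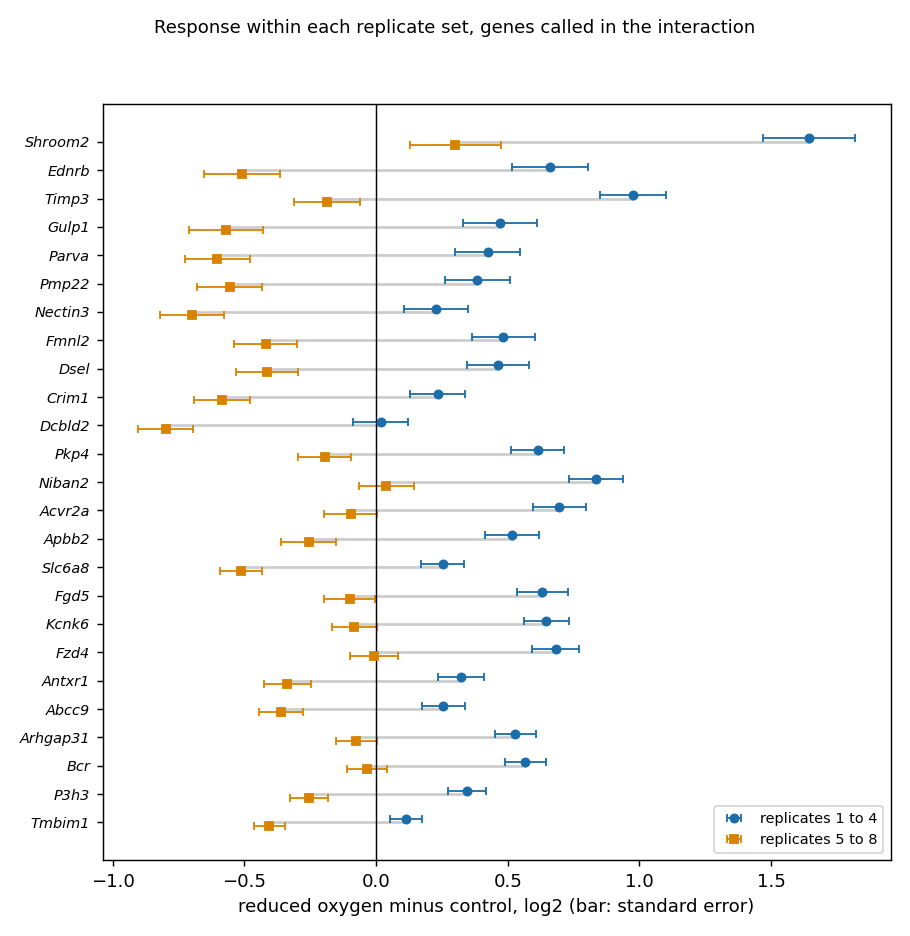
Response to reduced oxygen (reduced oxygen minus control, log2, bars show the standard error) of the 25 genes called in the interaction, in replicates 1 to 4 (circles) and replicates 5 to 8 (squares). Every circle lies to the right of its square, and the gap runs from 0.52 for Tmbim1 to 1.34 for Shroom2.

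The difference in these genes lay more between the reduced-oxygen arrays than between the controls. Their median difference between replicates 5 to 8 and 1 to 4 was 0.25 under control and -0.50 under reduced oxygen, and 22 of the 25 passed the test of the latter. Over all genes, 215 passed that test (1.69%), 147 of them lower in replicates 5 to 8 (1.15%). Under control 13 passed the same test (0.102%), 10 higher (0.0785%) and 3 lower (0.0236%). Both comparisons share arrays with the interaction. All 25 stood at an adjusted p just under the threshold, and the count of calls followed single arrays: it was 597 without reduced oxygen 4 (383 negative, 3.01%), 120 without reduced oxygen 3, 115 without control 4, 1 without control 2 or without reduced oxygen 2, and 0 without any other single array. None of the 25 changed sign when any 1 array was left out, with interactions from -0.50 to -1.48. They were picked from these same arrays for interactions large against their standard errors, so a kept sign is little evidence of stability.

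Erythroid genes made up the list with the largest median interaction after the pancreatic genes, and none of its members passed the test with all 16 arrays. Of 60 listed genes, 47 were tested. The interaction was positive for 47 of 47, with a median of 1.33 against -0.04 over all genes and a range of 0.07 to 2.02. The smallest adjusted p was 0.213, and 29 of 47 had an unadjusted p under 0.05 with a positive sign, as 3.41% of all genes did. In replicates 1 to 4 none of the 47 rose or fell, with a median response of -0.11. In replicates 5 to 8, 17 of 47 rose and none fell, with a median response of 1.22, where 4.87% of all genes rose. In a bulk sample, fewer cells of a type and less RNA per cell cannot be told apart.

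The values of single erythroid genes show where this difference lay. Klf1, the transcription factor that drives the late erythroid programme, lay at 11.21, 12.32, 11.77 and 11.02 in controls 1 to 4 and at 11.40, 10.16, 8.27 and 9.55 in controls 5 to 8. Under reduced oxygen it lay at 10.34, 10.28, 10.98 and 12.33 in replicates 1 to 4 and at 10.96, 11.41, 11.19 and 11.18 in replicates 5 to 8. Controls 6, 7 and 8 were the lowest arrays of all 16, control 5 lay among the other controls, and control 2 and reduced oxygen 4 were the highest. Both sets overlapped between conditions. The response was -0.60 ± 0.54 (adjusted p = 0.565) and 1.34 ± 0.54 (adjusted p = 0.102), and the interaction 1.94 ± 0.77 (adjusted p = 0.274).

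Cldn13, a claudin found on mouse erythroid cells, had the largest interaction of the list, 2.02 ± 0.79 (adjusted p = 0.268). Its controls lay at 10.44, 11.86, 11.20 and 10.17 in replicates 1 to 4 and at 10.70, 9.09, 7.54 and 8.67 in replicates 5 to 8. Its reduced-oxygen arrays lay at 10.30, 10.12, 11.15 and 12.06 and then at 10.72, 10.93, 11.18 and 11.19. Reduced-oxygen arrays 5 to 8 lay close together, just above the highest of their controls, and the response there was 2.01 ± 0.56 (adjusted p = 0.0247).

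Alad, which makes the ring precursor of haem, had the smallest interaction p of the list. It lay at 11.63, 12.68, 12.28 and 11.71 in controls 1 to 4, at 11.34, 11.49, 11.92 and 12.83 under reduced oxygen 1 to 4, at 11.71, 10.64, 9.71 and 10.50 in controls 5 to 8, and at 11.77, 12.05, 11.98 and 12.08 under reduced oxygen 5 to 8. As for Klf1, control 7 was lowest and reduced oxygen 4 highest. The interaction was 1.51 ± 0.53 (adjusted p = 0.213), and a second probe set gave 1.08.

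The same arrays were extreme across the list. Control 7 was the lowest of the 16 arrays for 42 of the 47 genes, control 2 was the highest for 25 and reduced oxygen 4 for 22. The list level was 10.47, 12.09, 11.47 and 10.47 in controls 1 to 4, 10.34, 10.41, 11.15 and 12.08 under reduced oxygen 1 to 4, 11.02, 10.10, 8.79 and 9.49 in controls 5 to 8, and 10.88, 11.12, 11.19 and 11.23 under reduced oxygen 5 to 8. The median erythroid difference between sets was -1.30 under control and 0.04 under reduced oxygen, and none of the 47 passed either of these tests. The other erythroid genes that rose in replicates 5 to 8 included the receptor of erythropoietin, Epor (1.34 ± 0.40, adjusted p = 0.0317), the transcription factors Gata1 (1.40 ± 0.43, adjusted p = 0.0387) and Gfi1b (1.46 ± 0.37, adjusted p = 0.0165), the glutamine transporter Slc38a5 (1.83 ± 0.52, adjusted p = 0.027) and the blood group proteins Rhag and Ermap. Single arrays moved this count of 17. Without control 7 it was 0, without control 8, reduced oxygen 7 or reduced oxygen 8 it was 1, without control 6 or reduced oxygen 6 it was 2, without control 3 it was 7, and without reduced oxygen 3 or 5 it was 8. Without reduced oxygen 4 it was 31, without control 5 it was 35, and without both arrays that carried pancreatic transcripts it was 34.

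Icam4, a red cell adhesion protein, is shown for its promoter, since it is the member with the smallest interaction p among those whose promoter holds AGATAA, the core motif of GATA factors. Its values were 8.34, 10.11, 9.32 and 8.41 in controls 1 to 4, 8.23, 8.20, 9.01 and 10.08 under reduced oxygen 1 to 4, 8.61, 7.51, 5.79 and 6.87 in controls 5 to 8, and 8.65, 8.90, 8.99 and 9.10 under reduced oxygen 5 to 8. Control 7 again lay lowest. The response was -0.17 ± 0.54 and 1.72 ± 0.54, the latter with an adjusted p of 0.041. The sequence is the stretch before the RefSeq start (GRCm38.p6, chr9:21029182-21029431, plus strand), with matches to AGATAA and to the KLF motif CACCC on either strand in capitals.
Icam4: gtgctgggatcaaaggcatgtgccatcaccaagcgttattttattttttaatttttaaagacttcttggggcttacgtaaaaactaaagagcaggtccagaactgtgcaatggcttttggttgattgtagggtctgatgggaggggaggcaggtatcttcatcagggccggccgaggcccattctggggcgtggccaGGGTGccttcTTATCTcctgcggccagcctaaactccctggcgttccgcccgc
The AGATAA match stands on the opposite strand, 43 bases before the start, and a CACCC match 53 bases before it. AGATAA stood in the promoters of 10 of 35 erythroid genes with an entry (28.6%), against 7.59% of all tested genes, and CACCC in 80% against 62.2%. The list was put together by known erythroid function and no member was called in the interaction, so these shares describe the list only.

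**Figure D2:**
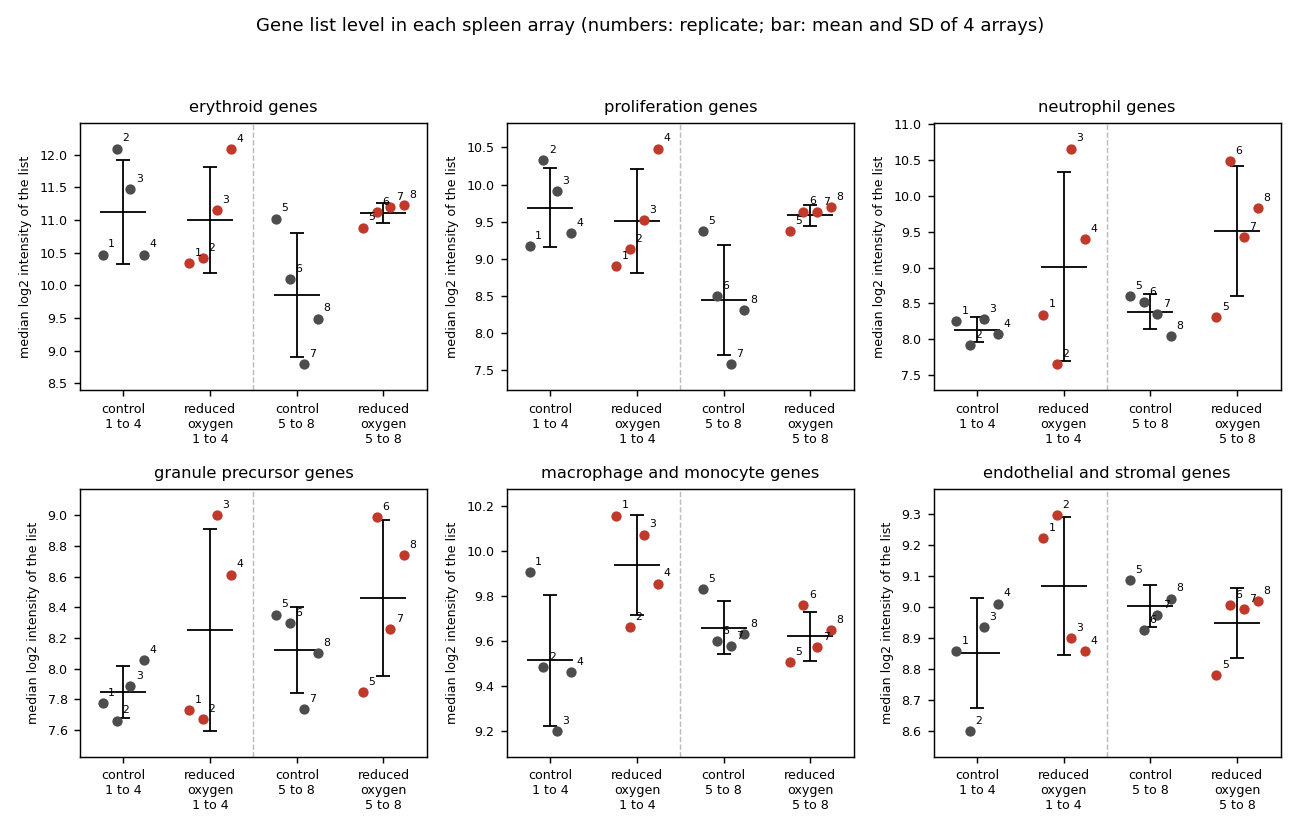
Level of 6 gene lists in each of the 16 spleen arrays (median log2 intensity of the tested members, numbers give the replicate, bars the mean and SD of 4 arrays). Erythroid and proliferation levels are lowest in controls 6 to 8 and highest in control 2 and reduced oxygen 4, while neutrophil levels split the reduced-oxygen arrays of both sets.

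Proliferation genes followed the erythroid list. Of 67 listed genes, 64 were tested, the interaction was positive for 64 of 64, and its median was 1.05, with a range of 0.57 to 1.92. None passed the test with all arrays (smallest adjusted p 0.143), and 45 had an unadjusted p under 0.05, as 3.41% of all genes did with a positive sign. None rose or fell in replicates 1 to 4, with a median response of -0.18. In replicates 5 to 8, 18 of 64 rose, with a median of 0.83, where 4.87% of all genes rose. The arrays of replicates 5 to 8 did not overlap for 20 of the 64, with reduced oxygen higher, against 8.43% of all genes.

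Mcm3, a subunit of the replicative helicase, lay at 10.13, 10.72, 10.52 and 10.23 in controls 1 to 4 and at 9.90, 10.18, 10.32 and 10.91 under reduced oxygen 1 to 4. It lay at 9.96, 9.54, 9.23 and 9.55 in controls 5 to 8 and at 10.16, 10.59, 10.40 and 10.39 under reduced oxygen 5 to 8. The first set overlapped and the second did not. The response was -0.08 ± 0.20 and 0.81 ± 0.20 (adjusted p = 0.0125 for the latter), and the interaction 0.89 ± 0.28 (adjusted p = 0.162). Of its other probe sets with a mean above 9, those with means of 9.70, 9.35 and 9.59 gave interactions of 0.95, 0.88 and 0.74.

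The promoter of Mcm3 is shown as an example of CCAAT boxes, the motif bound by NF-Y, in this list (RefSeq, GRCm38.p6, chr1:20820313-20820562, minus strand, matches to CCAAT on either strand in capitals).
Mcm3: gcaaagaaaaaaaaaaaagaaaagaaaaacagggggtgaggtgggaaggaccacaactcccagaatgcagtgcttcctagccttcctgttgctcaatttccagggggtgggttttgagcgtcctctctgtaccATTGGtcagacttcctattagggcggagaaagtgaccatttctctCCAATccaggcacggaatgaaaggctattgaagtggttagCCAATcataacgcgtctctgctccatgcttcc
It holds 3 matches, 117, 72 and 32 bases before the start. CCAAT stood in the promoters of 40 of 53 proliferation genes with an entry (75.5%), against 39.9% of all tested genes.

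Ccne1, the cyclin that starts DNA replication, had the smallest interaction p of the list. It lay at 9.25, 9.95, 9.87 and 9.35 in controls 1 to 4, at 8.85, 9.08, 9.39 and 10.37 under reduced oxygen 1 to 4, at 9.15, 8.52, 7.92 and 8.40 in controls 5 to 8, and at 9.63, 9.80, 9.66 and 9.71 under reduced oxygen 5 to 8. The later controls were all below the later reduced-oxygen arrays, and control 7 was lowest. The interaction was 1.38 ± 0.41 (adjusted p = 0.143).

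Other members ranged widely in size. The licensing factor Cdc6 had an interaction of 1.92 ± 0.66 (adjusted p = 0.201), its partner Cdt1 0.80 ± 0.28 (adjusted p = 0.213), the helicase subunit Mcm2 1.08 ± 0.37 (adjusted p = 0.201) and the mitotic kinase Plk1 1.16 ± 0.43 (adjusted p = 0.236). Cdc6 rose by 1.59 ± 0.46 in replicates 5 to 8 (adjusted p = 0.0301), and Plk1 had a response of 0.58 ± 0.30 there (adjusted p = 0.19). Control 7 was the lowest array for 63 of the 64 genes, reduced oxygen 4 the highest for 49 and control 2 for 15. The median difference between sets was -1.03 under control and 0.00 under reduced oxygen. The count of 18 that rose in replicates 5 to 8 became 2 without control 7, control 8 or reduced oxygen 6, 7 or 8, and 4 without control 6. It became 46 without control 5 and 47 without reduced oxygen 4.

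Counts of calls in both lists depended on how arrays that stood apart were treated. Without reduced oxygen 4, 29 of 64 proliferation genes and 3 of 47 erythroid genes passed the test of the interaction, all positive, where 1.68% of all genes passed in that direction. The erythroid genes that passed were Alad (1.82, adjusted p = 0.047), Gfi1b (1.74, adjusted p = 0.0477) and Zfpm1, the partner of Gata1 (1.60, adjusted p = 0.0477). Among proliferation genes Ccne1 had an interaction of 1.70 (adjusted p = 0.0354) and Mcm3 of 1.08 (adjusted p = 0.0391). The erythroid median was then 1.66 and the proliferation median 1.35. Reduced oxygen 4 was the highest array for 49 of the 64 proliferation and 22 of the 47 erythroid genes. Leaving it out therefore makes the interactions of those genes more positive by construction. Leaving out control 2 or control 7 instead, which were also extreme in these lists, gave 0 positive interaction calls among all genes. With array weights, which gave reduced oxygen 4 a weight of 0.159, 39 of 47 and 64 of 64 passed. In that fit 2185 of all 12735 genes passed, 899 of them positive, against 25 and 0 without weights. With the erythroid level of each array as a covariate (the median of Alas2, Slc4a1 and Klf1), no gene passed, and the medians were 0.18 for erythroid and 0.29 for proliferation genes. The covariate is made of erythroid list members, so the lower erythroid median follows from its construction. The 25 genes called with all arrays were all still negative in that fit, at -0.48 to -1.48, with adjusted p-values of 0.166 to 0.196.

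**Figure D3:**
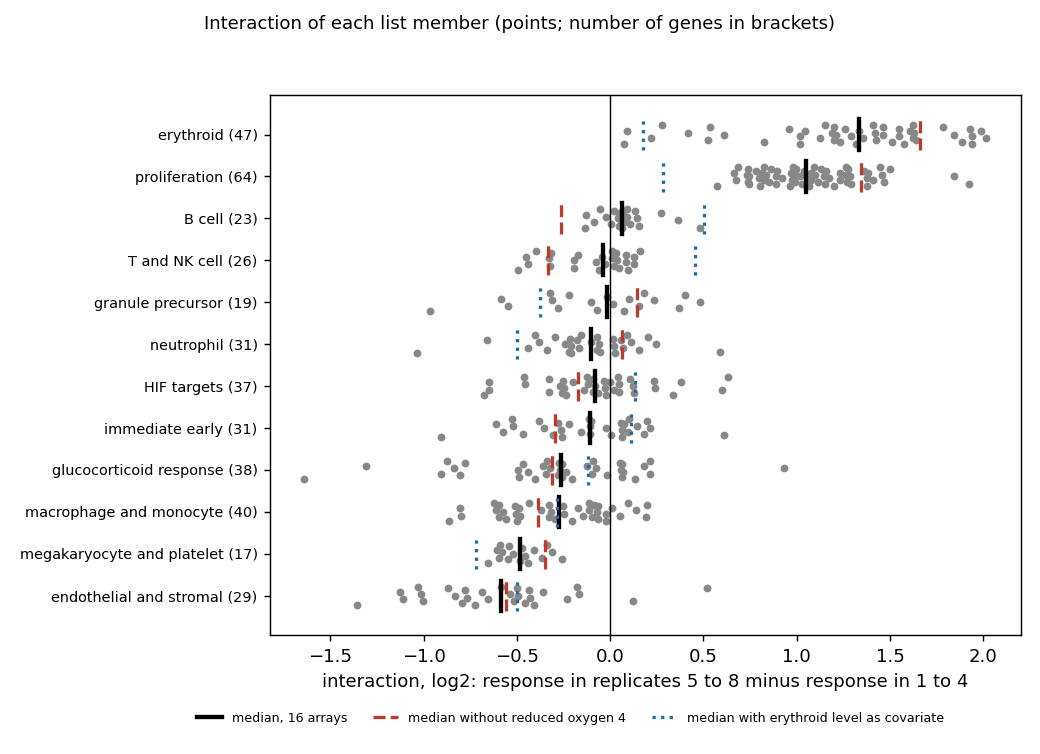
Interaction (log2) of every tested member of 12 gene lists (points, number of genes in brackets), with the list median over 16 arrays (solid), without reduced oxygen 4 (dashed) and with the erythroid level of each array as covariate (dotted). Erythroid and proliferation genes lie at positive values, at medians of 1.33 and 1.05, and endothelial and stromal genes at negative ones, at a median of -0.58.

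Among myeloid genes, none passed the test of the interaction, and the 3 lists differed in what they showed. Neutrophil genes had median responses of like size in the 2 sets. Of 31 tested, 3 rose in replicates 1 to 4 (median response 1.02) and 4 in replicates 5 to 8 (median 0.85), where 6.01% and 4.87% of all genes rose, none fell, and the median interaction was -0.10. Il1r2, a decoy receptor for interleukin 1, the haptoglobin gene Hp and the secreted glycoprotein Lrg1 rose in both sets.

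Il1r2 lay at 6.38, 6.15, 6.38 and 6.35 in controls 1 to 4 and at 6.73, 6.61, 6.97 and 6.90 in controls 5 to 8. Under reduced oxygen it lay at 7.91, 7.58, 10.66 and 8.69 in replicates 1 to 4 and at 7.50, 10.48, 9.43 and 9.64 in replicates 5 to 8. All reduced-oxygen arrays lay above all controls, with replicates 3 and 6 highest. The responses were 2.39 ± 0.59 (adjusted p = 0.017) and 2.46 ± 0.59 (adjusted p = 0.0117).

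The spread within the reduced-oxygen group was larger than the difference between sets. The neutrophil level was 8.34, 7.65, 10.66 and 9.40 under reduced oxygen 1 to 4 and 8.31, 10.48, 9.43 and 9.83 under reduced oxygen 5 to 8, against 7.92 to 8.60 in the 8 controls. Reduced oxygen 1, 2 and 5 lay within or below the range of controls, and the other 5 lay above it. Without reduced oxygen 2, 13 of 31 neutrophil genes rose in replicates 1 to 4, and without reduced oxygen 5, 12 rose in replicates 5 to 8, while leaving out other arrays brought either count down to 1. The median interaction turned from -0.10 to 0.36 without reduced oxygen 3, to 0.23 without reduced oxygen 5 and to 0.06 without reduced oxygen 4, so its sign was set by single arrays. Of the 6 neutrophil genes with the smallest interaction p, the protease inhibitor Slpi had the largest interaction, -1.03 ± 0.41 (adjusted p = 0.274), the activating receptor Trem1 had 0.25 ± 0.36, and the formyl peptide receptor Fpr2 had -0.38 ± 0.60, which turned to 0.03 without reduced oxygen 3.

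Genes of granule precursors had a median interaction of -0.02 over 19 tested members. In replicates 1 to 4, 3 rose (6.01% of all genes): Hp, the eosinophil granule protein Prg2 (0.96 ± 0.30, adjusted p = 0.0481) and the myeloid transcription factor Cebpa (0.42 ± 0.13, adjusted p = 0.0477). Hp alone rose in replicates 5 to 8. The median interaction ran from -0.31 without reduced oxygen 2 or 6 to 0.30 without reduced oxygen 5. Gfi1, a repressor active in granulocyte precursors, had the smallest interaction p of this list, with responses of 0.43 ± 0.14 and -0.15 ± 0.14 and an interaction of -0.58 ± 0.20 (adjusted p = 0.201). The level of the list was highest in reduced oxygen 3, at 9.001, and reduced oxygen 6, at 8.99, 1 in each set.

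Macrophage and monocyte genes had more calls in the first set. Of 40 tested, 12 rose in replicates 1 to 4 and none in replicates 5 to 8, where 6.01% and 4.87% of all genes rose, with median responses of 0.49 and 0.06, and 34 of 40 interactions were negative, with a median of -0.27. The smallest adjusted p of an interaction was 0.0773, and 11 members had a negative interaction at an unadjusted p under 0.05, as 10.4% of all genes did.

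Mertk, a receptor with which macrophages take up dying cells, was that member. It lay at 9.17, 8.98, 8.96 and 8.95 in controls 1 to 4, at 9.95, 9.52, 9.55 and 9.94 under reduced oxygen 1 to 4, at 9.30, 9.26, 9.30 and 9.23 in controls 5 to 8, and at 9.27, 9.46, 9.38 and 9.51 under reduced oxygen 5 to 8. The first set did not overlap and the second did. The responses were 0.73 ± 0.10 (adjusted p = 0.000356) and 0.13 ± 0.10 (adjusted p = 0.377), and the interaction was -0.59 ± 0.14. Without reduced oxygen 4 its interaction passed, at -0.53 (adjusted p = 0.0461).

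C1qa, a chain of complement C1q made by red pulp macrophages, lay at 11.65, 11.36, 10.72 and 11.26 in controls 1 to 4 and at 12.16, 11.58, 12.01 and 11.97 under reduced oxygen 1 to 4. It lay at 11.78, 11.68, 11.41 and 11.49 in controls 5 to 8 and at 11.42, 11.90, 11.69 and 11.77 under reduced oxygen 5 to 8. Both sets overlapped, and control 3 was the lowest array. The responses were 0.68 ± 0.17 (adjusted p = 0.0197) and 0.11 ± 0.17 (adjusted p = 0.712). C1qb, C1qc, the haemoglobin receptor Cd163, the mannose receptor Mrc1, the adhesion molecule Vcam1 and the pore-forming protein Mpeg1 also rose in replicates 1 to 4 and did not pass in replicates 5 to 8, and the first responses ran from 0.35 for Mpeg1 to 0.88 for Cd163. Not every macrophage marker rose. Spic lay at 9.72, 9.52, 9.10 and 9.14 in controls 1 to 4. It lay at 9.65, 8.95, 9.32 and 9.62 under reduced oxygen 1 to 4. In replicates 5 to 8 its controls lay at 10.05, 9.57, 9.41 and 9.42. The reduced-oxygen arrays there, all lower, lay at 9.005, 9.20, 9.09 and 9.27. In that set 3 of the 40 members separated with reduced oxygen lower (17.5% of all genes) and 2 with it higher (8.43%). Control 3 was the lowest array for 19 of the 40 members and reduced oxygen 1 the highest for 15. Leaving out 1 array moved these counts: 20 members rose in replicates 1 to 4 without control 1 or without reduced oxygen 2, 6 without reduced oxygen 1, 5 without control 2, 4 without control 4, and 2 without control 3 or without reduced oxygen 3. The count in replicates 5 to 8 was 0 to 4, with 4 without reduced oxygen 5.

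No endothelial or stromal gene passed the test of the interaction with all arrays. Of 29 tested, 27 had a negative interaction and 21 a negative one at an unadjusted p under 0.05, where 10.4% of all genes had one, with a median of -0.58 and a smallest adjusted p of 0.0699. In replicates 1 to 4, 6 rose (6.01% of all genes) and none fell: Egfl7, Pdgfra, Wt1, Esam, Tie1 and Cdh5, the cadherin of endothelial junctions. In replicates 5 to 8, 10 fell (11.9% of all genes) and none rose, among them the collagen genes Col1a1, Col1a2, Col3a1 and Col6a1, decorin (Dcn) and the spleen mesenchyme factors Tlx1, Tcf21 and Nkx2-5. Without reduced oxygen 4, 5 of the 29 passed the test of the interaction, all negative (3.01% of all genes): Col1a1 (-1.04, adjusted p = 0.0401), Col1a2 (-0.83, adjusted p = 0.039), Col6a1 (-1.13, adjusted p = 0.0436), Tie1 (-0.54, adjusted p = 0.0459) and Cdh5 (-0.54, adjusted p = 0.0472). The erythroid covariate left the median at -0.50, and leaving out single arrays gave medians of -0.73 to -0.52, with 5 to 7 members that rose in replicates 1 to 4 and 6 to 13 that fell in replicates 5 to 8, the 6 without reduced oxygen 7.

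Col1a2 had the smallest p of that list. It lay at 10.99, 10.64, 10.94 and 11.21 in controls 1 to 4 and at 11.22, 11.41, 11.05 and 11.03 under reduced oxygen 1 to 4, which overlapped. It lay at 11.50, 11.47, 11.16 and 11.27 in controls 5 to 8 and at 10.82, 10.89, 10.71 and 10.81 under reduced oxygen 5 to 8, which did not. The responses were 0.23 ± 0.12 (adjusted p = 0.234) and -0.54 ± 0.12 (adjusted p = 0.00656).

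Lymphocyte and megakaryocyte genes completed the picture of the cell types. B cell genes (23 tested) had a median interaction of 0.06 and T and NK cell genes (26 tested) of -0.04, and neither list had a member called in the interaction. These medians rested on reduced oxygen 4, the lowest array for 23 of 23 B cell genes and 16 of 26 T and NK cell genes: without it they were -0.27 and -0.33, again with no member called. All 17 megakaryocyte and platelet genes had a negative interaction, with a median of -0.48 and a smallest adjusted p of 0.184. Of these, 3 (Clec1b, Rgs18 and Nrgn) rose in replicates 1 to 4 and none in replicates 5 to 8, where 6.01% and 4.87% of all genes rose. Without reduced oxygen 2, 16 of 17 rose in replicates 1 to 4, and without reduced oxygen 3 none did. The part of these cell type levels in the other differences between sets was not tested, apart from the fit with the erythroid covariate.

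No gene passed with a positive interaction. The 6 genes of smallest p in that direction were the splicing factor Eftud2 (0.37 ± 0.10, adjusted p = 0.107), Emc9, Tcap, Apon, Gstp3 and the RNA helicase Ddx39a (0.57 ± 0.17, adjusted p = 0.141). For Eftud2 the response was 0.00 ± 0.07 in replicates 1 to 4 and 0.37 ± 0.07 in replicates 5 to 8. Its other probe sets gave interactions of 0.31 and 0.30 at means of 9.73 and 10.11, and -0.06 at a mean of 5.90.

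A large part of the response was shared. In both sets and in the same direction, 791 genes passed (6.21%), 217 higher (1.7%) and 574 lower (4.51%), and none of these was called in the interaction. They were 52.9% of the 1495 genes called in replicates 1 to 4 and 37.0% of the 2135 called in replicates 5 to 8. For 757 of the 791 the 95% interval of the interaction lay within 1 log2 unit on either side of 0. The median absolute interaction of the 791 was 0.10. The share of all genes with such an interval is not given here, and the limit is wider than the median responses given below. The median standard error of the interaction was 0.14 in the 791 and 0.16 over all genes. In both sets the arrays did not overlap for 178 of the 217 higher genes and 491 of the 574 lower ones. Genes called in both sets would tend to separate in this way, so these counts follow largely from the choice. Of all genes, 6.48% and 8.43% separated with reduced oxygen higher in the first and second set, and 7.29% and 17.5% with it lower. The median response of the higher genes was 0.54 in replicates 1 to 4 and 0.49 in replicates 5 to 8, and that of the lower genes was -0.45 and -0.51. Only 12 genes passed in opposite directions, all higher in replicates 1 to 4 and lower in 5 to 8. They are 7 of the 25 called genes and Mpdz, Slc24a3, Smad1, Tshz2 and Wwtr1. Leaving out 1 array gave 531 to 874 shared genes.

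**Figure D4:**
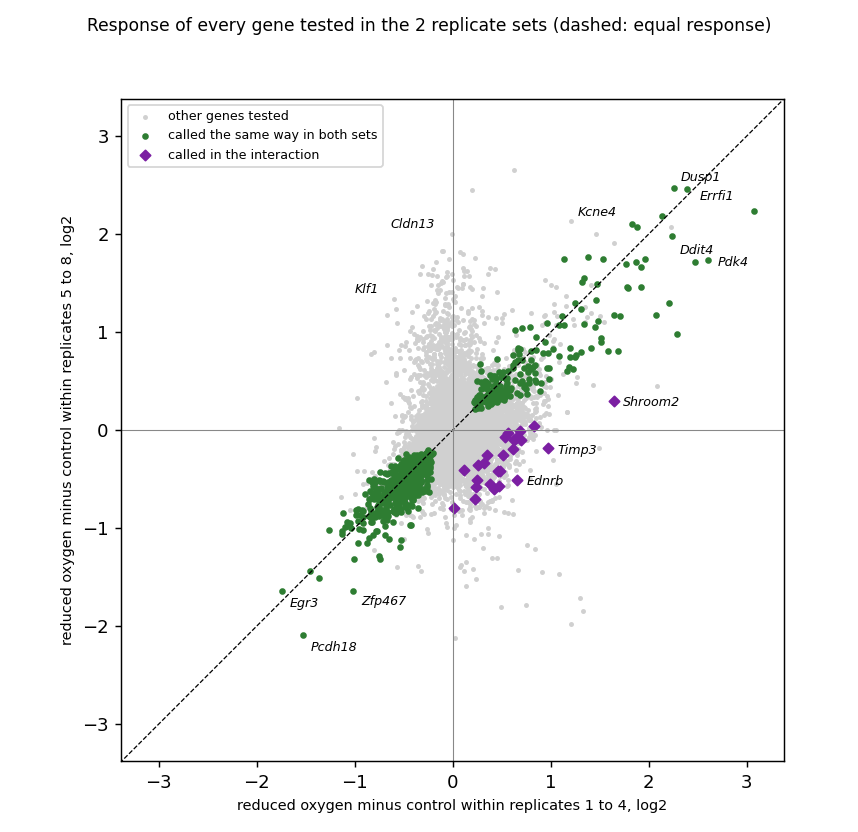
Response (reduced oxygen minus control, log2) of every gene tested in replicates 1 to 4 (horizontal) against replicates 5 to 8 (vertical). The 791 genes called the same way in both sets lie along the dashed line of equal response, and the 25 genes called in the interaction lie below it.

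In 35 shared genes the response was at least 1 log2 unit up in both sets, and in 9 at least 1 down. Dusp1, a phosphatase that switches off MAP kinases, lay at 9.15, 9.61, 9.30 and 9.13 in controls 1 to 4 and at 9.31, 8.76, 9.06 and 8.99 in controls 5 to 8. Under reduced oxygen it lay at 11.65, 11.32, 12.003 and 11.24 and at 11.24, 11.68, 11.48 and 11.59. All 8 reduced-oxygen arrays lay more than 1 log2 unit above all 8 controls. The responses were 2.26 ± 0.17 (adjusted p = 1.52e-06) and 2.47 ± 0.17 (adjusted p = 1.2e-06), and the interaction was 0.21 ± 0.23.

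Errfi1, a feedback inhibitor of the EGF receptor, had the largest shared rise in replicates 1 to 4. Its controls lay at 8.16, 7.56, 8.81 and 7.99 and at 8.43, 8.52, 8.57 and 8.83, and its reduced-oxygen arrays at 11.57, 11.32, 10.80 and 11.12 and at 10.95, 10.67, 10.80 and 10.87. Every reduced-oxygen array lay above every control. The responses were 3.07 ± 0.21 (adjusted p = 6.7e-07) and 2.24 ± 0.21 (adjusted p = 2e-05), and the interaction was -0.84 ± 0.30 (adjusted p = 0.214).

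Kcne4, a potassium channel subunit, was another large shared rise. Its controls lay at 7.43, 7.25, 7.31 and 7.19 and at 7.09, 7.07, 7.16 and 7.28, and its reduced-oxygen arrays at 9.01, 9.04, 9.30 and 9.14 and at 8.93, 9.51, 9.39 and 9.19. No array came close to the other group. The responses were 1.83 ± 0.11 and 2.11 ± 0.11. Other large shared rises were Fos (2.13 ± 0.31 and 2.19 ± 0.31), the pyruvate dehydrogenase kinase Pdk4 (2.61 ± 0.22 and 1.73 ± 0.22), the glutamate receptor partner Neto2 (2.47 ± 0.23 and 1.72 ± 0.23), the endothelial gene Apold1 (1.87 ± 0.38 and 1.72 ± 0.38), the dynein gene Dnah2 (1.97 ± 0.26 and 1.75 ± 0.26) and H3f3b (1.88 ± 0.24 and 2.07 ± 0.24).

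Egr3, an immediate early transcription factor, was among the largest shared falls. It lay at 9.11, 8.55, 8.85 and 9.05 and at 8.84, 9.13, 9.42 and 9.10 in the controls of the first and second set. It lay at 7.57, 8.06, 7.15 and 5.82 and at 7.93, 7.55, 7.52 and 6.92 under reduced oxygen. Reduced oxygen 4 was the lowest, and no array overlapped with the controls. The responses were -1.74 ± 0.35 (adjusted p = 0.00532) and -1.64 ± 0.35 (adjusted p = 0.00573). A second Egr3 probe set, with a mean of 7.10 against 8.16, showed no such fall, with responses of -0.01 and 0.13.

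Pcdh18, a protocadherin, lay at 7.51, 6.85, 6.63 and 7.14 and at 7.68, 7.24, 7.28 and 7.04 in controls, and at 5.56, 5.45, 5.21 and 5.83 and at 5.33, 5.38, 5.22 and 4.95 under reduced oxygen. The 2 groups did not overlap. The responses were -1.52 ± 0.18 and -2.09 ± 0.18. Cebpg also fell (-1.13 ± 0.13 and -1.03 ± 0.13), but its probe sets disagreed, with -0.51 and -0.53 at a mean of 6.90 and 0.45 and 0.17 at a mean of 6.77. Further shared falls were the signalling adaptor Traf1 (-1.26 ± 0.23 and -1.02 ± 0.23), the inhibitor of differentiation Id3 (-1.01 ± 0.18 and -1.31 ± 0.18), Rbm12b1, Thap2, Ubxn7, Ttpal and the zinc finger genes Zfp429, Zfp397 and Zfp467. For Zfp467 the fall was -1.02 ± 0.13 in replicates 1 to 4 and -1.64 ± 0.13 in replicates 5 to 8, with an interaction of -0.62 ± 0.19 (adjusted p = 0.151). Its dimmer probe sets, with means of 5.53 and 5.52 against 6.15, gave interactions of 0.07 and -0.26. Other Zfp397 probe sets gave smaller falls, -0.25 and -0.12 at a mean of 6.82 and -0.05 and -0.14 at 5.07. For Ttpal, probe sets with means of 7.92, 7.82 and 6.68 gave -0.86 and -0.51, -0.76 and -0.32, and -0.24 and -0.08. Dim probe sets of Thap2, Rbm12b1 and Ubxn7, with means of 4.63, 3.94 and 3.98, gave -0.20 to 0.03. The second Traf1 probe set gave -1.21 and -0.83. As a group chosen after these values were seen, Zfp genes had 48 shared falls and 5 shared rises among 258 tested. Of all genes, 4.51% were shared falls and 1.7% shared rises.

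**Figure D5:**
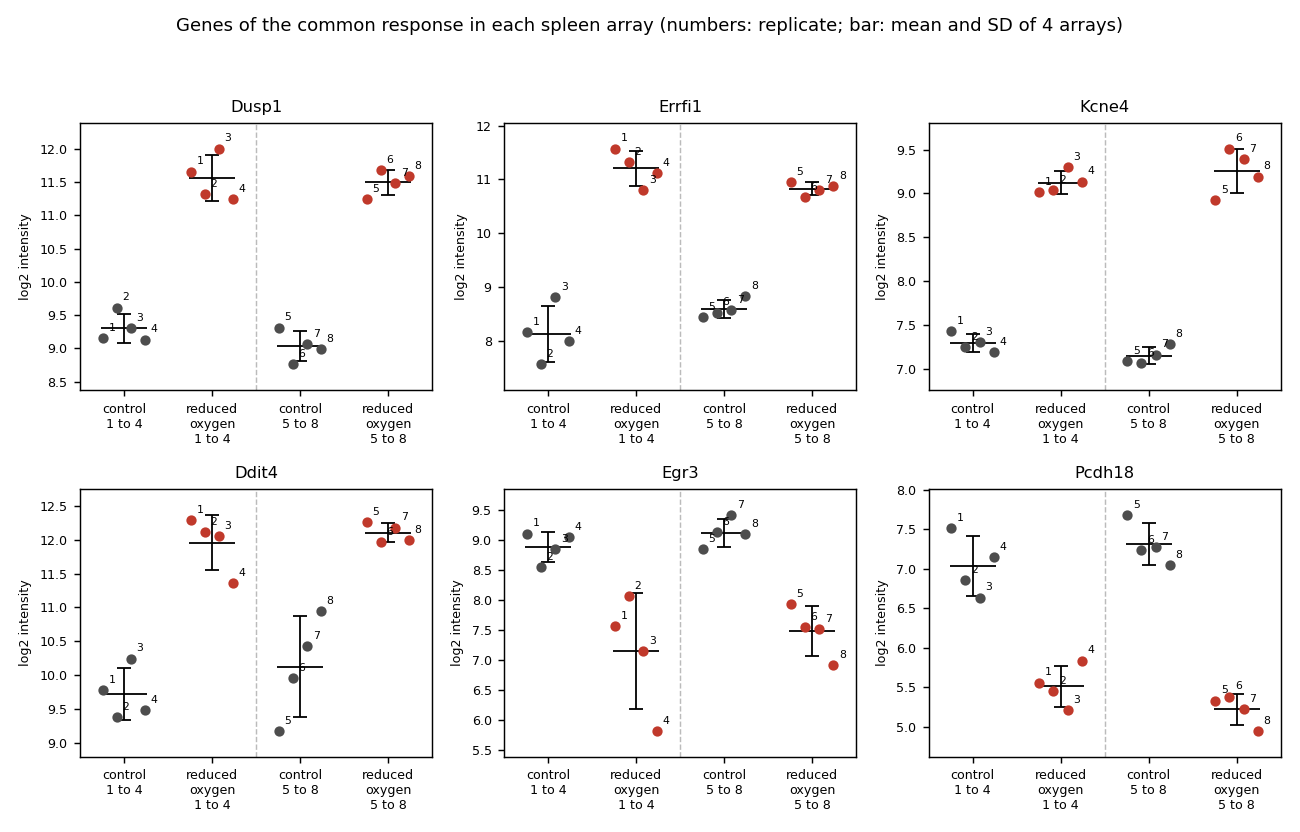
Log2 intensity of 6 genes of the shared response in each spleen array (numbers give the replicate, bars the mean and SD of 4 arrays). In both sets every reduced-oxygen array lies above every control for Dusp1, Errfi1, Kcne4 and Ddit4, and below every control for Egr3 and Pcdh18.

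Of 38 tested genes known to respond to glucocorticoids, 23 rose and 2 fell in replicates 1 to 4, 22 rose and 2 fell in replicates 5 to 8, and 21 rose and 2 fell in both, where 1.7% of all genes rose and 4.51% fell in both. The median response was 0.92 in the first set and 0.59 in the second, against -0.01 and -0.03 over all genes, and the median interaction was -0.26. Cebpd (1.78 ± 0.11 and 1.46 ± 0.11), Tsc22d3 (1.64 ± 0.24 and 1.18 ± 0.24), the clock gene Per1 (1.79 ± 0.17 and 1.45 ± 0.17), the kinase Sgk1 (1.26 ± 0.12 and 0.76 ± 0.12) and the homing receptor Cxcr4 (0.96 ± 0.20 and 1.09 ± 0.20) rose in both, and Bcl6 fell in both (-0.60 ± 0.15 and -0.83 ± 0.15).

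Fkbp5, a cochaperone of the glucocorticoid receptor, lay at 8.91, 8.60, 8.86 and 9.09 in controls 1 to 4 and at 11.34, 11.06, 11.16 and 10.72 under reduced oxygen 1 to 4. It lay at 9.24, 9.83, 9.70 and 9.36 in controls 5 to 8 and at 10.46, 10.69, 11.09 and 11.08 under reduced oxygen 5 to 8. Neither set overlapped, and the controls of the second set were higher. The responses were 2.20 ± 0.17 and 1.30 ± 0.17, and the interaction was -0.90 ± 0.25 (adjusted p = 0.103).

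Zbtb16, a zinc finger factor, had the smallest interaction p among these 38 genes. It lay at 6.63, 6.50, 6.96 and 7.47 in controls 1 to 4, at 8.91, 9.18, 8.85 and 8.97 under reduced oxygen 1 to 4, at 7.31, 8.14, 7.99 and 7.65 in controls 5 to 8, and at 7.58, 8.15, 8.53 and 8.63 under reduced oxygen 5 to 8. The first set was far apart and the second overlapped. The interaction of -1.64 ± 0.34 had an adjusted p of 0.0694. Without reduced oxygen 4, 4 of the 38 passed the test of the interaction, all negative (3.01% of all genes).

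Of 37 targets of HIF tested, 11 rose in replicates 1 to 4, 7 in replicates 5 to 8 and 6 in both, where 6.01%, 4.87% and 1.7% of all genes rose, none fell, and the median responses were 0.27 and 0.23. Without reduced oxygen 4, 16 rose in replicates 1 to 4, and without control 3, 7 did. Bnip3, a mitophagy receptor, lay at 7.97, 7.68, 7.86 and 8.38 in controls 1 to 4, at 8.83, 8.84, 9.39 and 8.75 under reduced oxygen 1 to 4, at 8.01, 7.99, 8.18 and 7.96 in controls 5 to 8, and at 8.36, 8.67, 8.56 and 8.63 under reduced oxygen 5 to 8. Neither set overlapped, and reduced oxygen 3 was highest. The responses were 0.98 ± 0.15 (adjusted p = 0.000771) and 0.52 ± 0.15 (adjusted p = 0.0289).

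The promoter of Bnip3 is shown for its HIF core motifs (RefSeq, GRCm38.p6, chr7:138909507-138909756, minus strand, matches to ACGTG and to the variant GCGTG on either strand in capitals).
Bnip3: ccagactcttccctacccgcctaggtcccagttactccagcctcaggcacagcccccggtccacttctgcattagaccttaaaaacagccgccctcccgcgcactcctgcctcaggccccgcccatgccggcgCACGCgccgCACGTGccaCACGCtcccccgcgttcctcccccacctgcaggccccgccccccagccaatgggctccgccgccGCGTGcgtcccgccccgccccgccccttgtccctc
It holds 5 matches, the middle ones forming the palindrome CACGTG, in which ACGTG is read on both strands, 108 and 107 bases before the start. ACGTG stood in 35.7% of the promoters of the 171 shared higher genes with an entry, against 24.3% of all tested genes, and GCGTG in 55% against 48.3%.

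Among the textbook targets, Ddit4, an inhibitor of mTORC1 that glucocorticoids also raise, lay at 9.78, 9.38, 10.24 and 9.48 in controls 1 to 4 and at 9.17, 9.95, 10.43 and 10.94 in controls 5 to 8. Under reduced oxygen it lay at 12.30, 12.12, 12.06 and 11.37 and at 12.26, 11.97, 12.18 and 11.999. The groups did not overlap in either set, although the later controls spread by more than 1 log2 unit. The responses were 2.24 ± 0.30 and 1.98 ± 0.30. Ankrd37 (1.38 ± 0.20 and 1.76 ± 0.20) and the vasodilator gene Adm (1.12 ± 0.18 and 1.16 ± 0.18) rose in both sets, with reduced oxygen 4 the lowest of the reduced-oxygen arrays for both genes.

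The other textbook targets, each by its brightest probe set, passed in 1 set or in neither. Vegfa, the main angiogenic factor, rose by 0.41 ± 0.11 in replicates 1 to 4 (adjusted p = 0.0272) and had a response of 0.17 ± 0.11 in replicates 5 to 8 (adjusted p = 0.295), with an interaction of -0.23 ± 0.16. Its second probe set, with a mean of 7.42 against 7.86, gave like responses in the sets, 0.52 and 0.47, and an interaction of -0.05. The prolyl hydroxylase Egln3 had responses of 0.94 ± 0.35 (adjusted p = 0.0954) and 1.17 ± 0.35 (adjusted p = 0.0314). A second Egln3 probe set of like brightness gave 0.74 and 0.62, with an interaction of -0.12 against 0.24. The haem-degrading enzyme Hmox1 had 0.89 ± 0.23 (adjusted p = 0.0227) and 0.56 ± 0.23 (adjusted p = 0.109), and the lipase inhibitor Angptl4 had 0.27 ± 0.16 and 0.00 ± 0.16 and passed in neither. A second Angptl4 probe set, far dimmer at a mean of 3.82 against 8.61, gave responses of 1.08 and 0.63. Among 26 alternatives, the Angptl4 response in replicates 1 to 4 passed in 1. A call in 1 set and not the other is no difference between sets, and none of the interactions tested for these genes passed.

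Immediate early genes were called in both directions in each set. Of 31 tested, 9 rose and 4 fell in replicates 1 to 4, 7 rose and 5 fell in replicates 5 to 8, and 7 rose and 4 fell in both. Of all genes, 6.01% rose and 5.73% fell in the first set, 4.87% rose and 11.9% fell in the second, and 1.7% rose and 4.51% fell in both. Fos, Rhob (1.51 and 0.90), Fosl2 (1.42 and 0.84), Ier3 (1.13 and 1.74) and Myc (0.49 and 0.38) rose in both, and Egr2 (-0.83 and -0.85), Gadd45b (-0.79 and -0.60) and Ier5 (-0.66 and -0.88) fell in both, as did Egr3.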

How the data were processed

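RNA was measured on Affymetrix arrays after biotin labelling. The deposited values are linear intensity per probe set, as the values themselves show (6.54 to 37760 in spleen). The submitters' processing notes name RMA and limma, with no version or role. No separate background correction or normalization was added, and log2 was taken without an offset. Median log2 intensity per array was 6.16 to 6.20, and correlations between arrays were 0.893 to 0.994. The number of arrays limits the precision.

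Of 45101 probe sets, 64 were controls, 34958 carried 1 gene symbol, 932 several and 9211 none. Each of 18193 genes was represented by its brightest probe set over the spleen arrays. Genes whose mean lay under the 30th percentile were left out, which kept 12735. limma 3.58.1 (R 4.3.3) fitted the 4 cells with 12 residual degrees of freedom, moderated variances and Benjamini-Hochberg adjustment over all genes. Of 721 listed gene names in 26 lists, 613 were tested. On simulated data with 12735 genes, the interaction test recovered 74% of 100 genes changed by 1 log2 unit and 93% of 100 changed by 2, with 9 false calls. The simulated noise was drawn independently for each gene, whereas single arrays here were extreme for most members of a list. The simulation therefore does not give the recovery or the false calls to be had from these arrays. Promoters were the 250 bases before each RefSeq start (GRCm38.p6). Motif shares were planned for list members called in the interaction. No erythroid or proliferation member was called, so whole lists were used.

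The members and lists were chosen with earlier results of these data known. Named genes were the 12 called genes of largest interaction in each direction or, where none was called, the 6 of smallest p, then the 6 of smallest interaction p in the erythroid, proliferation, neutrophil, granule precursor and macrophage lists, the 12 largest shared rises and falls, Vegfa, Bnip3, Egln3, Angptl4, Ddit4 and Hmox1, and the 3 of smallest p in any other list with 3 called in the interaction. Predicted genes were not named. Other genes named, among them the remaining interaction genes, the vascular, glucocorticoid and immediate early genes, and Epor and Gata1, were chosen after their values were seen. Alternatives covered probe set choice, filters, normalization, array weights, the erythroid level, the replicate number as a block and leaving out arrays.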

Additional observations from a re-analysis of the deposited data

Results flagged for a closer look

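Among 206 groups of 8 arrays tested over named genes and list levels, 19 had a highest or lowest array far from the other 7, where chance flags about 1 in 20 groups. Reduced oxygen 4 accounted for several of them. It was lowest among the reduced-oxygen arrays in the level of B cell genes (10.07), plasma cell genes (8.08), T and NK cell genes (7.866) and lymphocyte egress and homing genes (8.445), and in Ddit4 (11.37) and the signalling adaptor Traf1 (6.797). It was highest in Slc38a5 (11.34) and Cdt1 (11.99). Control 2 was lowest among controls in Ednrb (6.635), Crim1 (8.347), Gfi1 (5.991) and the level of endothelial and stromal genes (8.6).

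Transcripts of other tissues stood out in 3 arrays. Pancreatic acinar genes reached 13.04 in control 5 and 10.35 in reduced oxygen 2, and adipocyte genes 10.5 in control 4. Reduced oxygen 3 was highest in Bnip3 (9.392) and in the level of HIF targets (9.267). Reduced oxygen 1 was highest in Mpeg1 (12.33) and in the level of circadian clock genes (7.592).

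The response differed between the sets, by limma's test of the interaction at an adjusted p of 0.0479, for the 25 genes with these log2 differences: Shroom2 -1.343, Ednrb -1.169, Timp3 -1.16, Gulp1 -1.041, Parva -1.027, Pmp22 -0.9389, Nectin3 -0.9287, Fmnl2 -0.902, Dsel -0.876, Crim1 -0.82, Dcbld2 -0.8163, Pkp4 -0.8088, Niban2 -0.7954, Acvr2a -0.7926, Apbb2 -0.7711, Slc6a8 -0.7662, Fgd5 -0.7306, Kcnk6 -0.7299, Fzd4 -0.6899, Antxr1 -0.6602, Abcc9 -0.6167, Arhgap31 -0.6039, Bcr -0.6003, P3h3 -0.5997 and Tmbim1 -0.5184.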

How the results depend on the processing

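The count of 25 interaction calls was 0 with the mean of a gene's probe sets, with no filter on dim genes, with the replicate block and with the erythroid level as covariate, 1 without the arrays with pancreatic transcripts (an alternative added after seeing the data), 15 after quantile normalization and 2185 with array weights (899 positive, 1286 negative). Leaving out 1 array gave 0 to 597. The response gave 899 to 2005 calls in replicates 1 to 4 and 1194 to 3287 in replicates 5 to 8 when 1 array was left out, 2735 and 5225 with array weights, and 759 and 1001 with the replicate block. With the erythroid covariate, replicates 5 to 8 gave 961. The shared response had 531 to 874 genes when 1 array was left out, 1269 with array weights and 364 with the block. The labels do not say whether same-numbered arrays are paired. Deviations of same-numbered arrays from their cell means correlated at -0.50 to 0.61, and 1 of 8 correlated best with its own number. With 4 arrays per cell and single arrays extreme for many genes, these values cannot decide whether the numbers pair the arrays.

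The difference between sets under control (13 calls) was 0 with the mean of probe sets, 51 after quantile normalization, 3 after median centring, 2947 with array weights, 1 with the covariate, 794 without the pancreatic arrays and 0 to 1148 when 1 array was left out. Under reduced oxygen (215 calls) it was 115 with the mean of probe sets, 106 with the filter at the 50th percentile, 1535 with weights, 441 with the covariate, 139 without the pancreatic arrays and 3 to 512 when 1 array was left out.

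Of 1283 recomputed interactions of named genes, 1025 kept direction and side of the threshold, 216 no longer passed, 40 newly passed and 2 turned sign. Eftud2 turned to -0.063 (adjusted p = 0.916 in limma) without probe sets of type s, x or a, and Fpr2 ran from -0.74 to 0.033 when 1 array was left out. The Angptl4 response in replicates 5 to 8 turned to -0.10 with the covariate and ran from -0.077 to 0.13 when 1 array was left out. Apart from what the construction shows (fewer arrays or other genes tested), the cause was not tested.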

Other observations

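A few members of other lists rose in both sets, where 1.7% of all genes did, and most members did not. Of 23 interferon-stimulated genes tested, 3 rose in both sets, the sensor-like Oasl1 (0.64 ± 0.10 and 1.02 ± 0.10) and the antiviral GTPases Mx1 (0.67 ± 0.20 and 0.71 ± 0.20) and Mx2. Of 20 p53 targets, 5 rose and 1 fell in both, among them the cell cycle inhibitor Cdkn1a (1.45 and 1.05), Sesn1 (1.24 and 1.30) and the apoptosis gene Bbc3 (0.79 and 1.05). Of 16 circadian clock genes, Per1, Bhlhe40 and Nfil3 rose in both. These lists also hold genes that glucocorticoids or low oxygen are known to raise.

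Single members of other lists moved the same way in both sets. The cold-inducible RNA-binding protein Cirbp rose by 1.32 (adjusted p = 0.00179 in limma) and 1.51 (adjusted p = 0.000629), and the chaperone gene Chordc1 fell (-0.66 and -0.73). The inflammatory genes Icam1 (-0.56 and -0.71) and Tnf (-0.43 and -0.36) fell, and so did Batf3, a factor of dendritic cells (-0.37 and -0.62). By contrast, asparagine synthetase, Asns, passed in 1 set only. Its response was 0.12 in replicates 1 to 4 (adjusted p = 0.917 in limma) and 1.62 in replicates 5 to 8 (adjusted p = 0.0257). No gene passed limma's test with a positive interaction, so this call in 1 set is no difference between sets.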
